A study of Mus musculus with 2 samples.

Results

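Activated matrix-secreting fibroblasts are cells from mouse bowel and its mesenteric fat (mesenteric adipose tissue, MAT) that carry stromal collagen transcripts together with genes of fibroblast activation. They were chosen by unique molecular identifiers (UMIs, 1 per captured transcript). A cell needed at least 5 UMIs over Dcn, Col1a2, Col3a1 and Lum, which makes it a stromal cell here. It also needed at least 2 UMIs over Cthrc1, Timp1, Ptn, Col12a1 and Thbs2, and none of Pi16, Adamdec1, Inmt, Ptprc or Epcam. Of 51389 cells that passed the quality filter (500 or more gene UMIs from 300 or more genes, mitochondrial UMIs below 20%), 741 met this rule and 10171 were other stromal cells. The colotomy library held 638 of the activated cells and the sham library 103. These 14 genes chose the cells, so their values describe the choice and carry no comparison.

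The study took cells on postoperative day 14 from B6/C57 mice aged 8 to 12 weeks, after a colotomy (a surgical incision of the colon) or after a sham operation. Each group is 1 library made with the 10x Genomics platform, in which digested bowel and digested MAT were stained with hashtag antibodies and pooled. No gene was altered in either group, as far as the labels say, and the number of mice behind each library is not stated in them. A lone library for each operation leaves nothing to test, and no p-value is given. Intervals below are at 95% and cover counting error only, not differences between mice, digestions or libraries.

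The tissue of a cell rests on the hashtags alone. The submitters' reference table gives the oligonucleotide on each antibody, 15 bases read beside the transcripts, and these are printed because every tissue statement about the activated cells depends on telling them apart.
Hashtag 1 (bowel): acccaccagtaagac
Hashtag 2 (MAT): ggtcgagagcattca

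Fibroblasts of healthy bowel and fat are mostly resting cells. Some are adventitial progenitors marked by Pi16, and others sit in the lamina propria below the epithelium, where Adamdec1 marks them. After injury fibroblasts can take on a secretory state, laying down fibrillar collagens that are processed, cross-linked and organised by enzymes and matricellular proteins, and some become contractile myofibroblasts with smooth muscle actin. Cthrc1 is widely used as a marker of the most matrix-rich of these cells in injured lung and heart.

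Depth differed between the libraries. Of 15547 barcodes with 12002711 gene UMIs in the colotomy library 9246 were kept, and of 44814 with 74006762 in the sham library 42143 were kept. Activated cells had a median of 857.5 UMIs and 523.5 genes in the colotomy library, against 1697 UMIs and 957 genes in the sham library. Their summed UMIs came to 600199 and 207120, with 6.11% and 4.42% from mitochondrial genes. Of the kept barcodes, 108 occurred in both libraries, and no barcode was an activated cell in both. No doublet caller was run. The rule leaves out cells with a UMI of Ptprc (an immune gene) or Epcam (an epithelial gene), but doublets can remain. Ptprc had a UMI in only 49.5% of lymphocytes of the colotomy library and 77.3% of those of the sham library.

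Activated cells made up 14.6% of stromal cells in the colotomy library (638 of 4383, Clopper-Pearson interval 13.5% to 15.6%), against 1.58% in the sham library (103 of 6529, 1.29% to 1.91%). The rule reaches fewer cells at lower depth, and the colotomy library was the shallower one. With every cell thinned to 500 UMIs the shares were 12.5% in the colotomy library (487 of 3891, 11.5% to 13.6%) and 1.09% in the sham library (45 of 4131, 0.796% to 1.45%). The colotomy share was the higher one in each form. The intervals count cells within 1 library each, so they do not measure a difference between the operations. A Ptprc UMI occurred in 10.4% of stromal cells of the colotomy library and in 45.8% of those of the sham library, which holds many more lymphocytes (18507, against 190 in the colotomy library). With stromal cells that have no Ptprc or Epcam UMI as the denominator, the shares were 17.4% in the colotomy library (16.2% to 18.7%) and 3.11% in the sham library (2.55% to 3.76%). Without the demand for absent genes, 22.6% of stromal cells of the colotomy library and 5.05% of those of the sham library reached 2 UMIs over the 5 activation genes. Of these, 64.4% and 31.2% met the whole rule. How much the pooling of tissues and the makeup of each digest move these shares was not tested.

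**Figure D1:**
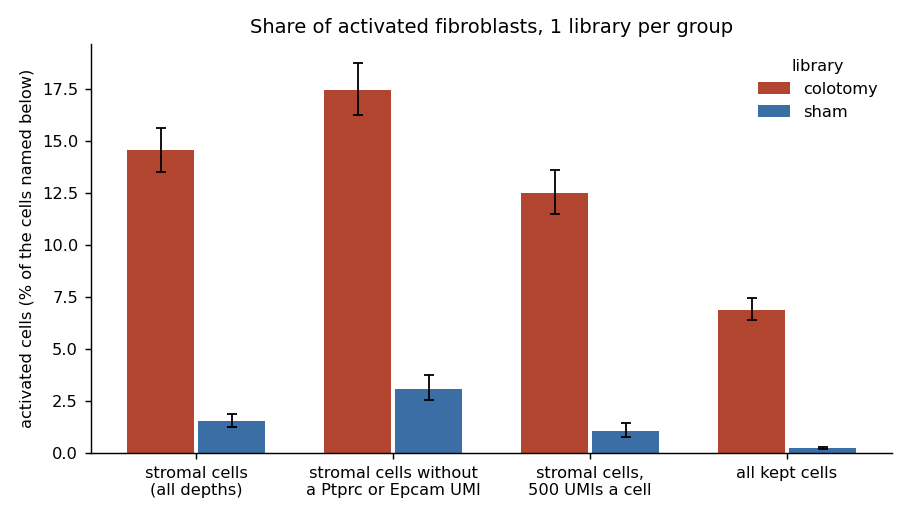
Share of activated cells (vertical axis, percent) in the colotomy and sham libraries, over stromal cells, stromal cells without a Ptprc or Epcam UMI, stromal cells thinned to 500 UMIs, and all kept cells. Bars are shares of 1 library each and whiskers are 95% Clopper-Pearson intervals; the colotomy bar is the higher one over each denominator, from 6.90% against 0.244% over all kept cells to 17.4% against 3.11%.

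The 5 activation genes took different parts in the choice. Col12a1, a collagen that sits on fibrils, had a UMI in 53.3% of the activated cells of the colotomy library and in 48.5% of those of the sham library. Ptn, a heparin-binding growth factor, had one in 52.8% and 30.1%, Timp1, a protease inhibitor, in 45.8% and 47.6%, and Thbs2, a matricellular protein, in 41.4% and 41.7%. Cthrc1 was the least often seen, in 15.05% of the activated cells of the colotomy library (96 cells) and 20.4% of those of the sham library (21 cells). The threshold cuts a range: 218 and 55 activated cells had just 2 activation UMIs, while 500 and 232 cells met the rest of the rule with 1. Col1a1, which encodes a chain of the main scar collagen, stood at 14755 CPM (UMIs of the gene per 1000000 UMIs of all genes) in the cells just inside the threshold and at 11469 CPM just outside it in the colotomy library. The sham values were 5134 CPM just inside and 2472 CPM just outside.

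The cells carried the markers of fibroblasts. Over 12 general fibroblast genes outside the rule the summed level was 27054 CPM in activated and 14316 CPM in other stromal cells of the colotomy library, and 16416 and 5614 CPM in those of the sham library. Col1a1 alone gave 17619 CPM of the first sum and 8628 CPM of the sham activated one. Of the 12 genes 6 were at least 1.5-fold higher in activated cells and none lower in the colotomy library, and 8 were higher and 1 lower in the sham library. Pdgfra, a receptor that marks most fibroblasts, was not higher: it had 172 CPM in activated and 223 CPM in other stromal cells of the colotomy library, and 203 and 255 CPM in those of the sham library. Lymphocytes (cells outside the stromal gate with at least 3 UMIs of B and T cell receptor genes or Ms4a1) stood at 341 CPM in the colotomy library and 160 CPM in the sham library. Col1a1 itself had a UMI in 99.5% of the activated cells of the colotomy library and 91.3% of those of the sham library. Of 20 further markers of activated fibroblasts or myofibroblasts that the rule did not use, 20 were measured in the colotomy comparison, and 16 of these were at least 1.5-fold higher than in other stromal cells, where 10% of all genes measured were. Of 18 measured in the sham library 15 were, beside 23.7% of all genes. The median log2 ratios were 1.21 and 1.87. Fap, a protease often used to mark activated fibroblasts, was barely captured, with 6 UMIs in the activated cells of the colotomy library and 5 in those of the sham library.

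Cells of the gate also carried markers of other cells, some of them in few cells and some in many. Over 10 smooth muscle genes the activated cells summed to 340 CPM in the colotomy library and 1424 CPM in the sham library, against 196 and 183 CPM in other stromal cells. A lone sham cell held 78.6% of its library's sum. At least 3 smooth muscle UMIs occurred in 10 of the colotomy and 7 of the sham activated cells, and at least 3 UMIs of 14 mesothelial genes (the lining of the gut and fat surface) in 26 and 10. Markers of immune and blood cells, present in lymphocytes and activated cells alike, also differed between the libraries. Neutrophil genes summed to 1008 CPM in the activated cells of the colotomy library and 19.3 CPM in those of the sham library (5 of the 8 genes at 0), beside 4023 and 83.9 CPM in lymphocytes. B cell genes summed to 1036 and 2496 CPM in activated cells, erythroid genes to 1724 and 8020 CPM, and plasma cell genes to 8627 and 3066 CPM. At least 3 UMIs of the plasma cell genes occurred in 24.1% of the colotomy and 76.7% of the sham activated cells. For the B cell genes the shares were 12.4% and 56.3%, and for epithelial genes 7.37% and 15.5%. Few cells held much of some sums. In the sham library 5 activated cells held 92.4% of the erythroid UMIs and 1 held 28.2% of the plasma cell UMIs. In the colotomy library 1 activated cell held 41.2% of the neutrophil UMIs. Epithelial genes summed to 1231 and 584 CPM, macrophage and monocyte genes to 858 and 357 CPM, and T cell, pericyte, vascular and lymphatic endothelial, adipocyte and Cajal cell genes to at most 241 CPM each. Of 8 glial and 6 mast cell genes, 7 and 5 were at 0 in each library. Their part in the ratios below was not tested. Values without the cells that carry smooth muscle or mesothelial markers stand beside the contractile genes, where enough UMIs were left.

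Set against the other stromal cells of the same library, activated cells had higher levels of many matrix genes and lower levels of many progenitor genes. A gene was measured when both sums together held at least 10 UMIs, and it was counted when the CPM differed at least 1.5-fold. In the colotomy library 1258 of 12526 genes were higher (10%) and 2813 lower (22.5%), together 32.5%. In the sham library 2814 of 11850 were higher (23.7%) and 2436 lower (20.6%), together 44.3%. Counts of this size include counting error, since many genes hold few UMIs. The rule chose the cells on matrix genes, so the choice itself bears on genes that go with them. Over the 11176 genes measured in both libraries, 532 were higher in both (4.76%) and 775 lower in both (6.93%). Another 115 were higher in the colotomy library and lower in the sham library (1.03%), and 373 the other way (3.34%).

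Fibrillar collagens led the matrix genes. Of 7 measured, 6 were higher in activated than in other stromal cells of the colotomy library and 7 in those of the sham library, and none was lower, with median log2 ratios of 1.22 and 1.67. Over all genes the medians were -0.12 and 0.04. Col1a1 (chromosome 11, 94936224 to 94953042, GRCm38) stood at 17619 CPM in activated and 7547 CPM in other stromal cells of the colotomy library. It stood at 8628 and 1432 CPM in those of the sham library. The log2 ratios were 1.22 (1.19 to 1.26) and 2.59 (2.52 to 2.66). The sham activated cells thus had about the Col1a1 level of the colotomy other stromal cells. Col5a1 and Col5a2, chains of the type V collagen that starts fibrils, had log2 ratios of 0.88 and 1.01 in the colotomy library and 1.67 and 1.497 in the sham library. Col24a1, a minor fibrillar collagen, stood at 103 CPM in activated and 19.8 CPM in other stromal cells of the colotomy library, and at 48.3 and 1.57 CPM in those of the sham library. Among the other matrix collagens 8 of 13 were higher and 4 lower in the colotomy library, and 11 of 13 higher and none lower in the sham library. Col8a1, a short-chain collagen of vessel walls and scars, had 625 CPM in activated and 251 CPM in other cells of the colotomy library, and 377 and 90.8 CPM in those of the sham library.

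Many of the enzymes that finish collagen were higher too. Of 24 measured genes of collagen modification and cross-linking, 12 were higher and 2 lower in the activated cells of the colotomy library. Among sham cells 19 of 23 were higher and 1 lower. Plod2, which hydroxylates the lysines used in cross-links, had 437 CPM in activated and 228 CPM in other stromal cells of the colotomy library, and 251 and 65.8 CPM in those of the sham library. Lox, a lysyl oxidase that makes the cross-links, had 347 CPM in activated and 210 CPM in other cells with colotomy, and 246 and 68.7 CPM with sham. Serpinh1, the collagen chaperone, had 2289 CPM in activated and 1430 CPM in other cells with colotomy, and 1622 and 684 CPM with sham. In each of these genes the activated cells of both libraries stood above the other stromal cells of their own library. The wider secretory pathway and unfolded protein response differed less: 3 of 29 genes were higher and 1 lower in the colotomy library, about the 10% over all genes, and 9 higher and 2 lower in the sham library.

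Matricellular proteins, which sit in the matrix and alter how cells bind it, were higher in 11 and lower in 2 of 21 measured genes in the colotomy library, and higher in 12 and lower in none of 19 in the sham library. Tnc (tenascin C; chromosome 4, 63959785 to 64047015), a protein of healing wounds, had 400 CPM in activated and 80.3 CPM in other stromal cells of the colotomy library. Among sham cells it had 222 and 31.0 CPM. The log2 ratios were 2.32 and 2.84. At 500 UMIs a cell Tnc was seen in 15.7% of activated and 3.04% of other stromal cells of the colotomy library, and in 6.80% and 1.35% of those of the sham library. At full depth the shares in activated cells were 24.5% and 26.2%. Lymphocytes had median depths of 857.5 and 1481 UMIs. At 500 UMIs they had Tnc in 0 of 190 cells of the colotomy library (upper limit 1.92%) and in 0.108% of those of the sham library. Postn (periostin), a cell-adhesive matrix protein, had 1794 CPM in activated and 932 CPM in other cells of the colotomy library, and 1342 and 368 CPM in those of the sham library. Fn1 (fibronectin), which is made widely, had log2 ratios of 0.11 and 0.14 and so was not counted in either library. Aspn, a small leucine-rich proteoglycan that binds collagen, had 816 CPM in activated and 252 CPM in other cells with colotomy, and 671 and 184 CPM with sham. Ltbp2, a microfibril protein, had 112 CPM in activated and 32.9 CPM in other cells with colotomy, and 67.6 and 5.45 CPM with sham.

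**Figure D2:**
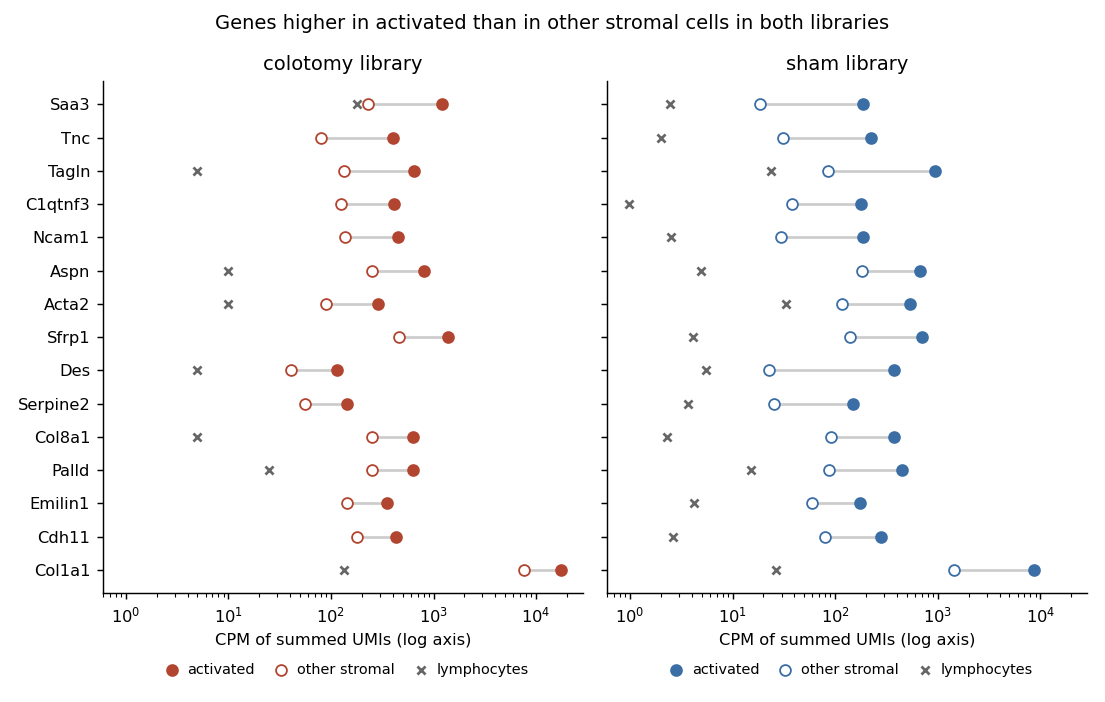
CPM of summed UMIs (horizontal log axis) of the 15 genes named as higher in activated than in other stromal cells in both libraries, in the colotomy library (left) and the sham library (right). Filled circles are activated cells, open circles other stromal cells and crosses lymphocytes (no cross where the value is 0); each gene's filled circle lies right of its open one, as for Tnc at 400 against 80.3 CPM in the colotomy library.

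Contractile genes were higher in the activated cells, and in the sham library 1 cell held much of them. Of 20 measured contractile and cytoskeletal genes, 11 were higher and none lower in the activated cells of the colotomy library, against 12 higher and 2 lower in those of the sham library. The list medians were 0.89 and 0.98, and 0.69 and 0.43 without the activated cells carrying smooth muscle or mesothelial markers. Other stromal cells with such markers stayed in, so ratios of genes that marked cells carry lean lower by the choice. Acta2 (smooth muscle actin; chromosome 19, 34241090 to 34255590) had 288 CPM in activated and 89.6 CPM in other stromal cells of the colotomy library, and 531 and 116 CPM in those of the sham library. Of its 110 sham UMIs 39 lay in 1 cell. Without the cells carrying smooth muscle or mesothelial markers, the Acta2 log2 ratio was 1.54 in the colotomy library and 0.10 in the sham library, against 1.69 and 2.19 with them. Tagln (transgelin, an actin-binding protein; chromosome 9, 45929619 to 45936058) had 640 CPM in activated and 134 CPM in other cells of the colotomy library, and 937 and 84.5 CPM in those of the sham library, where 113 of 194 UMIs lay in 1 cell; its sham log2 ratio was 3.47 with the marked cells and 1.38 without them. Des (desmin, a muscle intermediate filament) had 65 of 77 sham UMIs in 1 cell, and its sham log2 ratio was 4.02 with and 1.06 without those cells. With marked cells left out of the activated side alone, Acta2 passed 1.5-fold in the colotomy library and not in the sham library. A comparison with marked cells left out of both sides was not run. Palld and Actn1, which bind actin bundles, were also higher, and the sham log2 ratio of Palld was 2.36 with and 2.34 without those cells. Palld had 629.8 CPM in activated and 254 CPM in other cells of the colotomy library, and 449 and 87.3 CPM in those of the sham library, and Actn1 308 CPM in activated and 140 CPM in other cells with colotomy, and 270 and 63.5 CPM with sham.

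Secreted signals and surface proteins made up the rest of the 15 named genes. Saa3 (serum amyloid A3, an acute-phase protein; chromosome 7, 46711998 to 46715700) had 1196 CPM in activated and 229.5 CPM in other stromal cells of the colotomy library. Its sham levels were 188 and 18.3 CPM. It was carried by a minority of the cells, 70 (10.97%) in the colotomy library and 6 (5.83%) in the sham library, and 1 cell held 66 of the 718 colotomy UMIs. Lymphocytes had Saa3 at 178 and 2.45 CPM, so the colotomy level of other stromal cells lay near that of cells that should lack the gene. Sfrp1, a secreted WNT antagonist, was spread more widely: it had 1371 CPM in activated and 464 CPM in other cells of the colotomy library, and 700.1 and 138 CPM in those of the sham library. At 500 UMIs it was seen in 39.2% of activated and 16.1% of other stromal cells of the colotomy library, and in 23.3% and 6.49% of those of the sham library. C1qtnf3, a secreted protein of the C1q and TNF family, had 413 CPM in activated and 124 CPM in other cells with colotomy, and 179 and 38.1 CPM with sham. Ncam1, an adhesion molecule, had 455 CPM in activated and 137 CPM in other cells with colotomy, and 188 and 29.7 CPM with sham. Serpine2, a protease inhibitor, had 143 CPM in activated and 55.5 CPM in other cells with colotomy, and 150 and 25.5 CPM with sham. Emilin1, an elastic fibre protein, had 352 CPM in activated and 145 CPM in other cells with colotomy, and 174 and 59.9 CPM with sham. Cdh11, the cadherin of mesenchymal cells, had 427 CPM in activated and 181 CPM in other cells with colotomy, and 280 and 80.1 CPM with sham, but its sham log2 ratio was 1.81 at full depth and -0.15 after thinning. The rule was applied again to the thinned cells, so that value rests on 2 UMIs in 45 sham cells. In the activated cells as first chosen, thinned to 500 UMIs, Cdh11 was seen in 9.71% of activated and 3.81% of other stromal cells of the sham library, and in 18.0% and 8.17% of those of the colotomy library. All 15 genes kept a positive ratio under every alternative run in the colotomy library, and 14 did in the sham library, Cdh11 being the exception.

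Lists of signals and regulators were more mixed, and are read beside 10% higher and 22.5% lower over all genes in the colotomy library and 23.7% and 20.6% in the sham library. Of the TGF-beta pathway 5 of 19 genes were higher and 4 lower in the colotomy library, and 5 of 18 higher, near the share over all genes, and none lower in the sham library. Tgfb3, a ligand of that pathway, had 198 CPM in activated and 104 CPM in other stromal cells of the colotomy library, and 193 and 46.2 CPM in those of the sham library. Pmepa1, which dampens the same pathway, had 701 CPM in activated and 416 CPM in other cells with colotomy, and 299 and 172 CPM with sham. WNT and BMP signals were higher in 8 of 20 and 9 of 16 genes, and lower in 4 and 1. Wnt4, a WNT ligand, had 313 CPM in activated and 157 CPM in other cells with colotomy, and 126 and 28.1 CPM with sham. Cytokines and chemokines were higher in 6 of 28 genes and lower in 8 in the colotomy library, and higher in 13 of 20 and lower in 2 in the sham library. Among fibroblast transcription factors 6 of 33 were higher and 10 lower in the colotomy library, and 13 of 33 higher and 7 lower in the sham library. Runx1, a transcription factor of blood and activated mesenchyme, had 258 CPM in activated and 120 CPM in other cells with colotomy, and 145 and 64.3 CPM with sham. Proliferation genes were lower in 10 of 20 and 11 of 20 genes, and higher in 1 and 2; Mki67, the standard marker of dividing cells, had 12 UMIs in the colotomy and 5 in the sham activated cells. The rule leaves out cells with a Ptprc or Epcam UMI on the activated side only. With such cells left out of the other stromal cells too, the sham median of the proliferation list was 0.11, against -0.98 with them. Genes of bone, cartilage and tendon were higher in 6 of 11 and 6 of 7, and lower in 1 each. Proteoglycans were higher in 5 of 17 and 7 of 16 and lower in 2 each, and elastic fibre genes higher in 6 of 18 and 9 of 18 and lower in 3 each. Growth factors and receptors were higher in 7 of 25 and 10 of 19 and lower in 4 and 2. Integrins and adhesion genes were higher in 5 of 23 and 6 of 25 and lower in 5 and 7, with the sham counts near the shares over all genes. Glycolysis and hypoxia genes were higher in 2 of 24 and 4 of 23 and lower in 4 each. Complement genes were higher in 1 of 12 and 1 of 11 and lower in 4 and 1, and gut lamina propria genes higher in 5 of 15 each and lower in 4 and 2.

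Genes of resting and progenitor fibroblasts were lower. The rule removes Pi16-positive cells from the activated side only, so the choice itself bears on genes that go with Pi16. Of 18 measured progenitor genes 16 were lower and none higher in the colotomy library, and 12 of 17 were lower and 1 higher in the sham library, with medians of -1.43 and -1.08. Scara5, a ferritin receptor of adventitial fibroblasts (chromosome 14, 65666403 to 65764826), had 31.7 CPM in activated and 227 CPM in other stromal cells of the colotomy library. It had 43.5 and 210 CPM in those of the sham library. It was also lower than in stromal cells with none of the excluding genes, which had 204 and 184 CPM. Against those cells the medians of the progenitor list were -1.19 in the colotomy library and -0.84 in the sham library. Efemp1, a matrix glycoprotein, had 80.0 CPM in activated and 403 CPM in other cells with colotomy, and 96.6 and 390 CPM with sham. Cd248 (endosialin), a surface protein of stromal cells, had 173 CPM in activated and 385 CPM in other cells with colotomy, and 237 and 494 CPM with sham. Sema3c, a secreted guidance cue, had 58.3 CPM in activated and 280 CPM in other cells with colotomy, and 101 and 218 CPM with sham. Dpp4, a peptidase that marks the same progenitors, had 38.3 CPM in activated and 90.9 CPM in other cells with colotomy, and 33.8 and 74.7 CPM with sham, in activated cells near the 40 and 42 CPM of lymphocytes.

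The other named genes on the lower side came from several groups. Smpd3, a sphingomyelinase, had 10.0 CPM in activated and 133 CPM in other stromal cells of the colotomy library, and 62.8 and 257 CPM in those of the sham library. Adamts5, a protease that cleaves aggrecan and versican, had 100.0 CPM in activated and 363 CPM in other cells with colotomy, and 82.1 and 315 CPM with sham. Ackr3, a scavenging chemokine receptor, had 33.3 CPM in activated and 154 CPM in other cells with colotomy, and 43.5 and 131 CPM with sham. Each was lower in both libraries. Log2 ratios of the other 10 genes ran from -2.30 (Pcolce2) to -1.12 (Fyn) in the colotomy library and from -2.11 (Pcolce2) to -1.12 (Pcsk6) in the sham library. Genes of quiescent and steroid-responsive fibroblasts were lower in 12 of 21 and 10 of 21, and higher in 2 and 4. Adipose and adipogenic genes were lower in 12 of 21 in the colotomy library and in 4 of 18 in the sham library, where 5 were higher; the sham counts lie near the 20.6% lower and 23.7% higher over all genes.

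Col1a1 set the activated cells apart from each stromal class, while some other genes and lists did not. Pi16-positive cells (1048 and 1030), Inmt-positive cells (48 and 450), Adamdec1-positive cells (61 and 123) and stromal cells with none of the excluding genes and fewer than 2 activation UMIs (1891 and 1720) had no Ptprc or Epcam UMI. Col1a1 reached 17619 CPM in activated cells of the colotomy library, against 11800 in Adamdec1-positive, 8561 in Pi16-positive and 4462 CPM in Inmt-positive cells. The sham levels in the same order were 8628, 1720, 2101 and 1261 CPM. Tnc and Postn set activated and Adamdec1-positive cells less far apart. Adamdec1-positive cells had 243 CPM of Tnc in the colotomy library and 434 CPM in the sham library, the second above the 222 CPM of activated cells. Their Postn stood at 1736 and 1044 CPM, against 1794 and 1342 CPM in activated cells. Saa3 reached 1320 CPM in the 48 Inmt-positive cells of the colotomy library, above activated cells, and 8 CPM in those of the sham library. Fibrillar collagens summed highest in activated cells, at 21106 CPM with colotomy and 10868 CPM with sham. Elastic fibre genes summed to 7671 and 7739 CPM in activated cells, below the 9923 and 8407 CPM of Pi16-positive cells. Integrins and adhesion genes summed to 2787 and 1931 CPM in activated cells, below the 2875 and 2038 CPM of Adamdec1-positive cells.

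**Figure D3:**
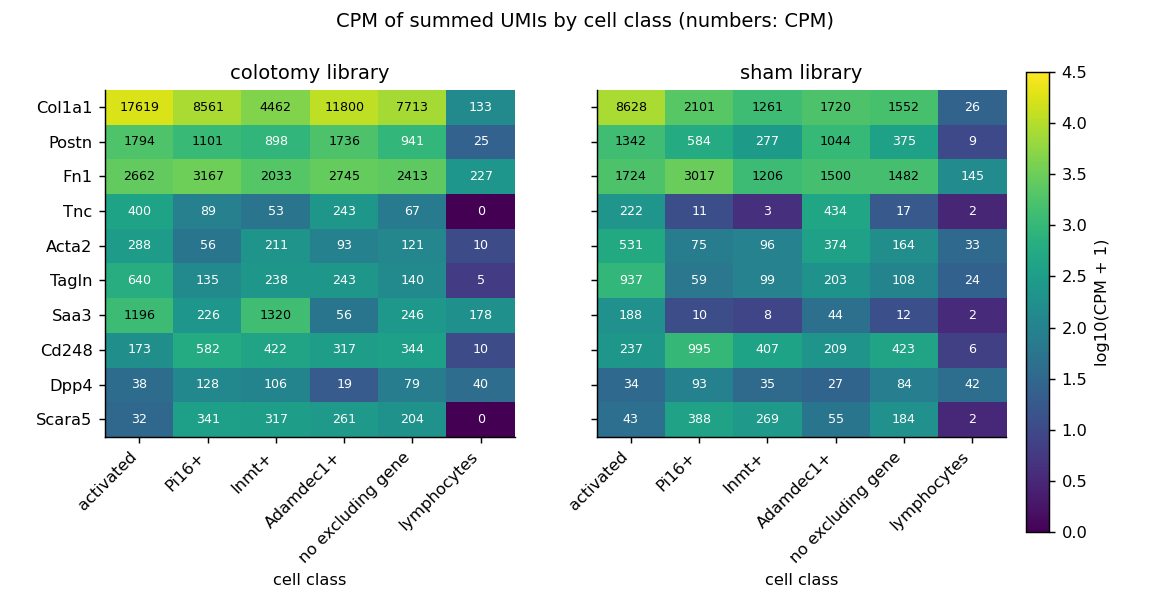
CPM of summed UMIs of 10 genes (rows) in activated cells, the 4 other stromal classes and lymphocytes (columns), in the colotomy library (left) and the sham library (right); colour is log10(CPM + 1) and the printed numbers are CPM. Col1a1 is highest in activated cells of both libraries (17619 and 8628 CPM), and Scara5 is lowest there among the stromal classes (32 and 43 CPM).

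Between the operations, activated cells of the colotomy library carried more matricellular, fibrillar and early-response transcripts, and fewer interferon and resting-cell transcripts, than those of the sham library. The sums of these lists differed in the same direction in other stromal cells, so the differences were not particular to activated cells. Fibrillar collagens summed to 9387 CPM with colotomy and 2249 CPM with sham in other stromal cells, beside 21106 and 10868 CPM in activated cells. Matricellular genes summed to 13912 and 7523 CPM in other stromal cells, and interferon response and MHC class I genes to 3402 and 3987 CPM. Of 8636 genes measured, 1848 were at least 1.5-fold higher in the colotomy library (21.4%) and 1875 lower (21.7%), together 43.1%, with a median log2 ratio of -0.02. Sums of 103 sham cells limit these ratios: where at least 5 UMIs were expected in each library, 1131 were higher and 1085 lower. The threshold of 2 activation UMIs is stricter for shallower cells, and median depth was 857.5 UMIs with colotomy and 1697 with sham. At least 5 activation UMIs occurred in 32.1% of the colotomy and 20.4% of the sham activated cells, so the cells compared were not chosen alike. Values with the rule applied after thinning are given among the alternatives. Sex-linked RNA differed too. Xist, the RNA of the inactive X chromosome, was seen without Y-linked RNA in 92 colotomy and 0 sham activated cells, and Y-linked RNA without Xist in 77 and 25. Operation, library and animals cannot be told apart.

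Matricellular proteins were higher in 11 of 20 genes and lower in 1. Thbs1 (thrombospondin 1, an activator of latent TGF-beta; chromosome 2, 118111876 to 118127133) had 999.7 CPM in the colotomy library and 212 CPM in the sham library, a log2 ratio of 2.23 (1.79 to 2.71). It was seen in 39.5% of the colotomy and 20.4% of the sham activated cells, and at 500 UMIs in 29.6% and 7.77%. Lymphocytes had Thbs1 at 173 CPM with colotomy and 8.96 CPM with sham, so it differed between the libraries outside the gate too. The part of this in the ratio was not tested. Ccn2 and Ccn1, immediate products of mechanical and growth signals, had 145 CPM with colotomy against 24.1 CPM with sham and 198 CPM with colotomy against 48.3 CPM with sham, from 5 and 10 sham UMIs. Targets of YAP and TAZ, to which both belong, were higher in 9 of 19 genes and lower in none. Thbs4, a thrombospondin of tendon and muscle, had 170 CPM with colotomy against 43.5 CPM with sham.

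Fibrillar collagens were higher in 4 of 7 genes with none lower, and the median log2 ratio was 0.70. Col11a1 (chromosome 3, 114030540 to 114220718), a fibril-nucleating collagen of cartilage, had the largest ratio of the named genes, 192 CPM in the colotomy library against 19.3 CPM in the sham library. It rests on 115 and 4 UMIs and its log2 ratio of 3.31 has an interval of 1.92 to 5.21. Matrix proteases and their inhibitors were higher in 11 of 22 genes and lower in 1. Mmp14, a membrane-bound collagenase, had 1180 CPM with colotomy against 401 CPM with sham, a log2 ratio of 1.56. Timp3, a protease inhibitor bound to the matrix, had 673 CPM with colotomy against 280 CPM with sham, a log2 ratio of 1.27. Timp3 had a log2 ratio of -0.40 for activated over other stromal cells in the sham library. Collagen modification was higher in 8 of 22 genes and lower in 2, and elastic fibre genes were split at 3 and 3 of 18. Fmod, a proteoglycan that spaces collagen fibrils, had 238 CPM with colotomy against 57.9 CPM with sham.

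Among signals, Grem1, a secreted BMP antagonist of the stroma around crypts, had 393 CPM in the colotomy library and 86.9 CPM in the sham library, a log2 ratio of 2.18 (1.49 to 2.96). Saa3 had a log2 ratio of 2.67 (2.20 to 3.17), which ranged from 1.00 to 3.10 over the alternatives. Ctla2a, a cysteine protease inhibitor, had 443 CPM with colotomy against 48.3 CPM with sham, and Hp (haptoglobin, which binds free haemoglobin) 150 CPM with colotomy against 38.6 CPM with sham. Lymphocytes had Hp at 64.3 CPM with colotomy and 1.69 CPM with sham. H19, an imprinted noncoding RNA, had 145 CPM with colotomy against 29.0 CPM with sham; for both Hp and H19 the ratio after thinning was -0.067 and -0.078, from 3 and 4 UMIs in the 45 sham cells that met the rule again. In the activated cells as first chosen, thinned to 500 UMIs, Hp was seen in 4.23% and H19 in 5.33% of those of the colotomy library. Each was seen in 0 of 103 of those of the sham library (upper limit 3.52%). Thy1, a surface protein of fibroblasts and T cells, had 125 CPM with colotomy against 14.5 CPM with sham, from 75 and 3 UMIs. Cttn, Fosb and Tspan4 completed the 15 genes, with log2 ratios of 2.23, 1.87 and 1.80. Spp1 (osteopontin), a matrix phosphoprotein that macrophages also make, had 174 UMIs in the colotomy and 0 in the sham activated cells, a log2 ratio of at least 4.32 against a floor of 3 counts in the sham sum. Its level of 290 CPM lay beside 188 CPM in colotomy lymphocytes.

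Immediate early genes were higher in 12 of 20 and lower in 1, against 2 higher and 3 lower of 22 for activated over other stromal cells within the colotomy library, and 1 higher and 8 lower of 22 within the sham library, where 20.6% of all genes were lower. Fos, a component of AP-1, had 365 CPM in the colotomy and 188 CPM in the sham library, and Zfp36, which destabilises inflammatory mRNAs, 152 CPM with colotomy and 48.3 CPM with sham. These genes are also induced during enzymatic digestion, and the whole list summed to 3524 and 2831 CPM in lymphocytes, beside 4234 and 2573 CPM in activated cells. The part of digestion was not tested.

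**Figure D4:**
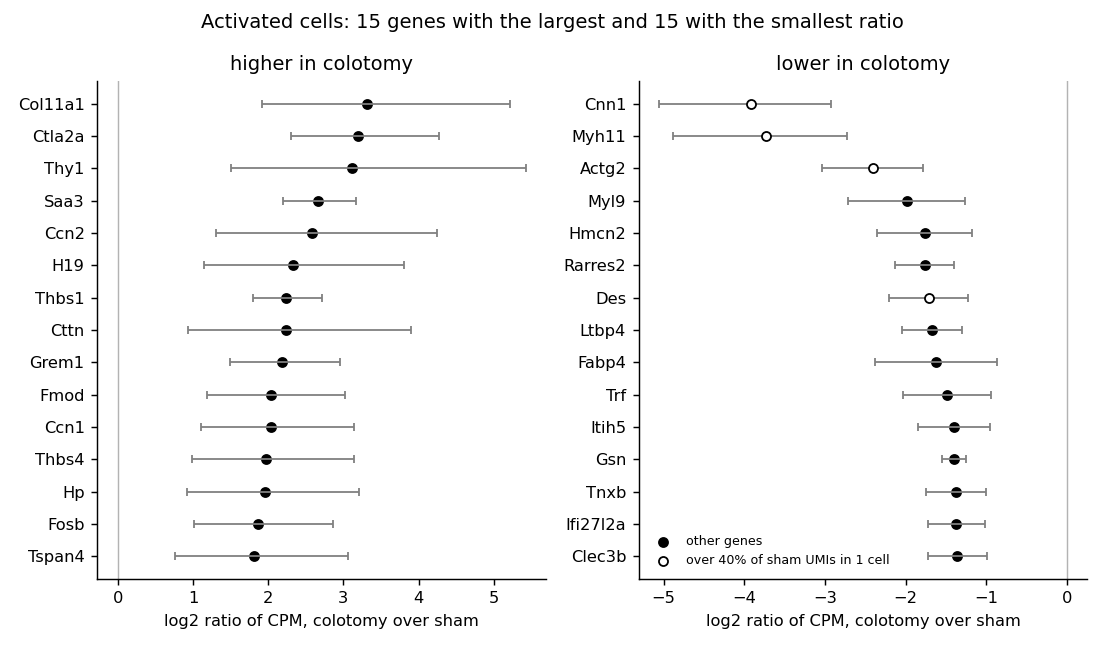
Log2 ratio of CPM in activated cells, colotomy over sham (horizontal axes), for the 15 genes with the largest ratios (left) and the 15 with the smallest (right). Points are ratios of summed UMIs, bars are 95% conditional binomial intervals for counting error, and open circles mark genes with over 40% of their sham UMIs in 1 cell; Col11a1 has the largest ratio at 3.31 and Cnn1 the smallest at -3.91.

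The lower side was led by smooth muscle genes of 1 sham cell. Cnn1, Myh11 and Actg2, all of the contractile apparatus of smooth muscle, had 16.7, 16.7 and 58.3 CPM in the colotomy library against 251, 222 and 309 CPM in the sham library. Of their sham UMIs, 47 of 52, 30 of 46 and 63 of 64 lay in 1 cell. Without the marked cells these genes had 7, 5 and 16 UMIs in the colotomy library and 0 each in the sham library, so Cnn1 and Myh11 fell under the 10 UMIs needed, and the log2 ratio of Actg2 was at least 0.69 against a floor of 3 counts. Over the list of smooth muscle markers 6 of 7 measured genes were lower with a median of -2.41, and without the marked cells the median was 0.69. Contractile genes in all were higher in 3 of 19 and lower in 5, and their median of -0.093 became 0.46 without the marked cells. Lower levels carried by more cells were those of Gsn (gelsolin, an actin-severing protein; chromosome 2, 35256380 to 35307892), with 1241 CPM with colotomy against 3278 CPM with sham and a log2 ratio of -1.40 (-1.55 to -1.25). Among cells called for hashtag 2 alone the Gsn log2 ratio was 0.29, from 115 UMIs in 83 colotomy and 35 UMIs in 14 sham cells. The hashtags did not separate clearly in either library, so that value does not describe a tissue. Ltbp4, a microfibril protein, had 200 CPM with colotomy against 637 CPM with sham, Tnxb, a tenascin of loose connective tissue, 220 CPM with colotomy against 570 CPM with sham, and Clec3b (tetranectin) 232 CPM with colotomy against 594 CPM with sham. Rarres2 (chemerin), an adipokine, had 197 CPM with colotomy against 666 CPM with sham, with 44 of 138 sham UMIs in 1 cell, and its log2 ratio was -1.76 with the marked cells and -0.95 without them. Hmcn2, Itih5 and Trf also belonged to these 15, at -1.76, -1.40 and -1.49. Myl9, a myosin light chain, had 50.0 CPM with colotomy against 198 CPM with sham, with a log2 ratio of -0.79 without the marked cells, and Fabp4, a fatty acid carrier of fat and vessels, 51.6 CPM with colotomy against 159 CPM with sham.

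Interferon response and MHC class I genes were lower in 13 of 21 and higher in 1, with a median log2 ratio of -0.83. Ifitm3, which blocks viral entry, had 390 CPM in the colotomy library against 739 CPM in the sham library, H2-D1, a class I heavy chain, 235 CPM with colotomy against 454 CPM with sham, and Ifi27l2a, an interferon-induced gene, 233 CPM with colotomy against 603.5 CPM with sham. The list summed to 2508 and 3689 CPM in activated cells, beside 4053 and 4354 CPM in lymphocytes. Sham activated cells lay nearer to lymphocytes for these genes than colotomy activated cells did. Quiescent and steroid-responsive genes were lower in 10 of 20 and higher in 1, and adipose genes lower in 8 of 16 and higher in 1. Cd34, a surface protein of resting fibroblasts and endothelium, had 138 CPM with colotomy against 309 CPM with sham. Progenitor genes gave 3 lower and 1 higher of 14, close to the 21.7% lower over all genes.

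The other lists ranged from mostly higher to evenly split. Integrins and adhesion genes were higher in the colotomy library in 8 of 20 and lower in 2, WNT and BMP signals higher in 6 of 12 and lower in 1, cytokines and chemokines higher in 7 of 20 and lower in 3, and bone, cartilage and tendon genes higher in 5 of 8 and lower in 2. The secretory pathway was higher in 9 of 29 and lower in 1. Manf, a factor induced by stress of the endoplasmic reticulum, had 258 CPM in the colotomy library against 106 CPM in the sham library, and Pdia4, which forms disulfide bonds there, 342 CPM with colotomy against 154 CPM with sham. Growth factors and receptors were higher in 6 of 17 and lower in 3, proteoglycans in 5 and 3 of 16, the TGF-beta pathway in 5 and 3 of 18, and transcription factors in 7 and 6 of 26. Other matrix collagens were higher in 3 and lower in 3 of 12, glycolysis and hypoxia genes in 5 and 5 of 22, proliferation genes in 3 and 3 of 12, complement in 2 and 3 of 10, and gut lamina propria genes in 3 and 4 of 12. Over all genes 21.4% were higher and 21.7% lower.

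**Figure D5:**
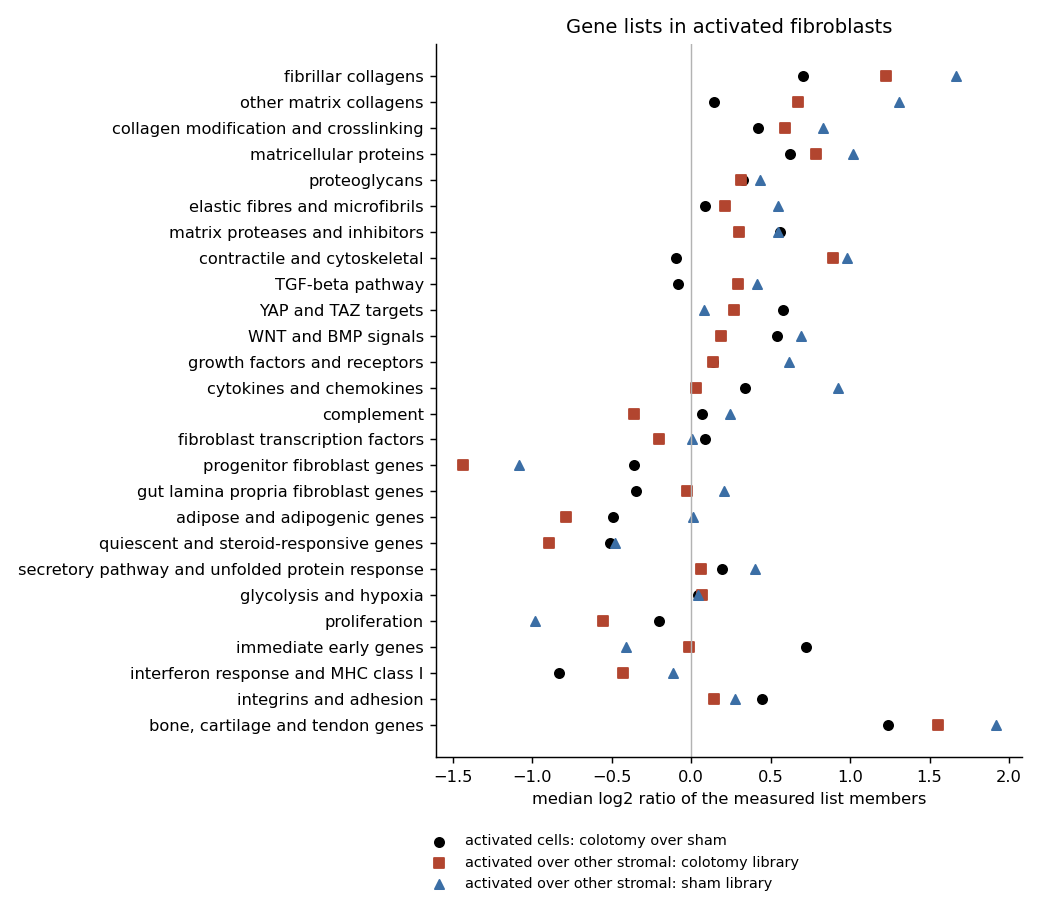
Median log2 ratio (horizontal axis) over the measured members of 26 gene lists (rows), for colotomy over sham in activated cells (circles) and for activated over other stromal cells in the colotomy library (squares) and the sham library (triangles). Fibrillar collagens lie at 0.70, 1.22 and 1.67, and progenitor genes at -0.36, -1.43 and -1.08.

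The levels within the gate are given as a description, since the rule used the activation sum and nothing is read from them. Grouped by activation UMIs of 2, 3 to 4, and 5 or more (218, 215 and 205 cells), activated cells of the colotomy library had Col1a1 at 14755, 16232 and 21317 CPM, Thbs1 at 608, 815 and 1501 CPM, and Acta2 at 141, 146 and 543 CPM. In the sham library (55, 27 and 21 cells) Col1a1 stood at 5134, 7608 and 14495 CPM.

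The tissue of the activated cells could not be read. The labels disagree on the antibodies: the extraction text calls the hashtags anti-human and the tag listing anti-mouse, and the bearing of this was not tested. A mixture of a low and a high component of each hashtag separated them by at most 0.976 SDs of the lower component in the colotomy library and 0.631 in the sham library. By that call 10.8% of activated cells of the colotomy library carried hashtag 1 alone, 13.0% hashtag 2 alone, 7.68% both and 68.5% neither, and in the sham library 3.88%, 13.6%, 3.88% and 78.6%. Median UMIs of hashtags 1 and 2 were 2649.5 and 442 in activated and 2619 and 506 in other stromal cells of the colotomy library. Those of the sham library were 554 and 1220 in activated and 552 and 1367 in other stromal cells. The balance of the hashtags thus followed the library, and activated cells lay close to other stromal cells of their own library. Bowel and MAT cells among them cannot be told apart here.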

How the data were processed

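The deposited matrices hold raw UMI counts per barcode for 32285 genes and 2 hashtags, made with Cell Ranger 6.0.0 per the file headers. The submitters' processing notes list the build mm10, STAR 2.5.1b, Seurat and Space Ranger with no role given, and the cell calling settings are not given in the sources used here. From those counts, UMIs of a class were summed in each library and scaled to counts per 1000000 (CPM) over all genes. Ratios have exact conditional binomial intervals, levels exact Poisson intervals and shares exact Clopper-Pearson intervals at 95% (numpy 2.4.6, scipy 1.17.1, pandas 2.3.3). The ratio intervals alone were tested on simulated data. Those counts were drawn independently, so coverage where many UMIs of a gene lie in 1 cell was not tested. Hashtags were called with a mixture of 2 components on log10(UMI + 1) (scikit-learn 1.9.0), and figures drawn with matplotlib 3.10.9. Genes needed 10 UMIs over both sums, and a ratio against 0 used a floor of 3 counts. Gate genes were left out.

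The genes named are the 15 and 15 with the largest and smallest ratio, colotomy over sham, and the 15 and 15 with the largest and smallest ratio shared by both libraries, activated over other stromal. They needed 30 UMIs and 100 CPM where higher and a level there not below that of cells outside the stromal gate, and were not mitochondrial, ribosomal, haemoglobin, immunoglobulin, sex-linked or unnamed genes. Genes of the lists were picked as examples after their values were seen. The members, the 26 gene lists and the 19 marker lists were chosen with earlier results of these data known. Alternatives were thinning, stricter quality and gate thresholds, barcodes of both hashtags left out, sex-linked RNA, hashtags, weight of cells, scaling, low-count filters, 2-fold in place of 1.5-fold and other denominators; 2 more were chosen after seeing the data (cells with smooth muscle or mesothelial markers left out, and at least 5 UMIs expected in each group). Gene positions and promoters are from GRCm38.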

Additional observations from a re-analysis of the deposited data

Results flagged for a closer look

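The lymphatic endothelial marker list had a median log2 ratio for activated over other stromal cells of -0.70 in the colotomy library and 1.15 in the sham library, so the libraries went opposite ways. In the sham library 50% of the list's UMIs in activated cells lay in 1 cell, and in the colotomy library 0 activated cells had 3 or more UMIs of the list. Myh11, smooth muscle myosin, had log2 ratios of -0.70 in the colotomy library and 2.35 in the sham library, where 30 of its 46 UMIs lay in 1 cell. Without the cells carrying smooth muscle or mesothelial markers, sham activated cells had 0 UMIs of Myh11. Neither difference was tested, since each library is a lone sample.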

How the results depend on the processing

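The share of activated cells was 14.6% in the colotomy and 1.58% in the sham library. It was 12.5% and 1.09% after thinning, 9.58% and 0.735% with 3 activation UMIs, 16.3% and 1.27% in cells with Y-linked RNA alone, 12.4% and 1.95% with hashtag 2 alone, and 17.4% and 3.11% without Ptprc or Epcam in the denominator. In the colotomy library it was also 19.7% with 1000 UMIs and 500 genes, 17.5% with 10 stromal UMIs and 16.0% with hashtag 1 alone (1.03% in the sham library, from 4 activated cells, whose gene ratios were not run). By the larger hashtag after scaling to its median, 58.0% of activated cells were hashtag 1 in the colotomy and 69.9% in the sham library, and by hashtag 1 alone above its median 17.9% and 25.2%.

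Counts past the threshold depended on the filter. Colotomy over sham, 1848 higher genes became 602 after thinning, 530 with Y-linked RNA, 494 with hashtag 2, 414 at 50 UMIs, 930 at 2-fold and 1131 with 5 UMIs expected. The 1875 lower genes became 1098, 638, 415, 329, 862 and 1085 in that order, and 3325 at 1 UMI. Activated over other stromal cells in the colotomy library, 1258 higher genes became 2450 at 1 UMI, 579 at 50 UMIs, 492 at 2-fold and 794 with 5 expected, and 2813 lower genes became 1773 with Y-linked RNA, 1555 with hashtag 1, 1432 at 50 UMIs and 1442 at 2-fold. With median-of-ratios scaling that split was 1687 higher and 2374 lower. In the sham library 2814 higher genes became 1524 at 2-fold and 712 with 5 expected, and 2436 lower genes became 577 after thinning, 919 with hashtag 2, 1249 at 2-fold and 1259 with 5 expected. Fewer genes or cells enter most of these by construction.

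Of 1483 alternative values of named genes 19 changed the sign of a ratio past 1.5-fold. Of 1995 list medians 146 changed sign, 9 of them from a median past 1.5-fold. The rule was applied again after thinning and left 45 sham cells, so the thinned gene values rest on 1 to 7 UMIs in those cells, and Actg2 has 0 sham UMIs wherever it is given. Colotomy over sham, thinning turned the erythroid list to 0.24, H19 to -0.078, Hp to -0.067, Fabp4 to 0.81 and Trf to 1.26. With 3 activation UMIs the smooth muscle list was 0.66, Cnn1 1.54, Myh11 0.22, Actg2 at least 1.63 and Des 0.97. There Cnn1 had 1, Myh11 2 and Des 8 sham UMIs. With 10 stromal UMIs the list was 0.64, Cnn1 1.62, Actg2 at least 1.95 and Des 0.91, where Cnn1 had 1 and Des 12 sham UMIs. Des was 0.72 with Y-linked RNA, from 5 sham UMIs. With hashtag 2 Fabp4 was 0.31 and Gsn 0.29, from 3 and 35 sham UMIs. Without the marked cells, chosen after seeing the data, the mesothelial list was 0.63, the smooth muscle list 0.69, Actg2 at least 0.69 and Des 0.92. Activated over other stromal cells in the sham library, thinning turned the proliferation list to 0.91, the epithelial list to 0.23, Cdh11 to -0.15, Man1a to 0.14 and Fyn to 0.53, and the proliferation list was 0.12 with Y-linked RNA and 0.11 without Ptprc or Epcam in the other cells. The cause was not tested. Of the 15 genes highest in colotomy 13 kept their sign under every alternative run, and of the 15 lowest 8 did. No paired analysis was possible because each group is 1 library. The 103 sham cells and their 207120 UMIs limit every ratio between the operations.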

Other observations

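Activated cells were 9.67% of the colotomy stromal cells with Xist and no Y-linked RNA (92 of 951, 7.87% to 11.7%) and 16.3% of those with Y-linked RNA and no Xist (77 of 473, 13.1% to 19.9%). In the sham library they were 1.27% of the stromal cells with Y-linked RNA alone (25 of 1975, 0.821% to 1.86%), and only 7 stromal cells had Xist alone. In the colotomy activated cells Col1a1 was alike in both, at 17815 CPM with Xist and 17113 CPM with Y-linked RNA. Postn, at 1570 and 1543 CPM, and Sfrp1, at 1312 and 1421 CPM, also differed little. Col8a1 stood at 258 and 607 CPM, Col11a1 at 65 and 279 CPM, Saa3 at 376 and 862 CPM and Mmp14 at 1634 and 1045 CPM. These are examples out of more genes, and Col11a1 rests on 6 and 23 UMIs and Saa3 on 35 and 71. Most colotomy activated cells, 463 of 638, had neither RNA, and stood at 715 CPM for Col8a1, 205 CPM for Col11a1, 1459 CPM for Saa3 and 1104 CPM for Mmp14.

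Promoters of the named genes were searched on both strands, over 300 bases from 250 before to 50 after the start (RefSeq, GRCm38.p6). The letters were GGAATG (the TEAD motif), TGANTCA (AP-1) and CCWWWWWWGG (the CArG box, with W for A or T). Among all 32851 promoters 14.7%, 7.81% and 1.63% held them. Of 13 promoters of genes higher in activated cells in both libraries (10 of 15 genes matched), 3 held the TEAD motif, 1 the AP-1 motif and 0 the CArG box. Of 11 promoters of genes lower in activated cells in both libraries (10 of 15 genes matched), 2 held the TEAD motif and 2 the AP-1 motif. Of 11 promoters of genes higher in the colotomy library (9 of 15 genes matched), 2 held the TEAD motif and 3 the AP-1 motif, and 2 of these 3 are overlapping windows of Ctla2a. Neither set held the CArG box. Boxes that differ from the letters searched were not counted, so a count of 0 does not mean that these promoters lack such boxes.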
